A study of Homo sapiens with 16 samples.

Results

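BUD23 and TRMT112 encode the catalytic subunit and the obligatory partner of a ribosomal RNA methyltransferase, and they are 2 of the 61906 genes listed in the deposited expression tables. BUD23 was chosen because its transcript usage, that is the share of the gene held by each of its transcripts, differed between cells transfected with a small interfering RNA against HNRNPH1 (siHNRNPH1) and cells transfected with a negative control (siNegative). TRMT112 was added as its partner, though members and gene lists were chosen with earlier results of these data known. BUD23 usage and BUD23 level in that contrast are therefore given as descriptions without a test, and TRMT112 is tested. The cells were HEK-293T, a line from embryonic kidney that expresses SV40 large T, and HT-1080, which comes from a fibrosarcoma. Both were transfected with 20 nM of siRNA and RNA was taken after 48 h. Each of the 4 groups (HEK-293T siNegative, HEK-293T siHNRNPH1, HT-1080 siNegative and HT-1080 siHNRNPH1) has 3 short-read RNA-seq libraries, which the labels call biological replicates, and 1 full-length cDNA (IsoSeq) pool made from pooled replicates. An siRNA depletes its target only in part, and the labels do not say how many siRNA sequences against HNRNPH1 were used.

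HNRNPH1 is an RNA-binding protein of the heterogeneous nuclear ribonucleoprotein H and F family. It binds runs of G in pre-mRNA and influences splice site choice. BUD23 adds a methyl group to N7 of a guanosine in 18S rRNA of the small ribosomal subunit, and the small subunit is made less well without it. BUD23 is unstable unless it is bound to TRMT112, a small zinc-binding protein with no methyltransferase activity of its own. TRMT112 also activates methyltransferases that act on tRNA (ALKBH8, TRMT11, THUMPD3), on a spliceosomal small nuclear RNA (THUMPD2), on another site of 18S rRNA (METTL5) and on proteins (N6AMT1).

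BUD23 (ENSG00000071462.12, 18 transcripts in the tables) spans chr7:73683597-73698212 on the forward strand in the RefSeq annotation of GRCh38.p14. TRMT112 (ENSG00000173113.7, 6 transcripts) spans chr11:64316460-64318596 on the reverse strand. The sequences around both start codons are shown because the splicing differences of BUD23 described further on lie downstream of its start codon. They are from RefSeq, 5′ to 3′, with the start codon in capitals.
BUD23, chr7:73683626-73683646, forward strand: ATGgcgtcccgcggccggcgt
TRMT112, chr11:64317510-64317526, reverse strand: ATGaaactgcttaccca
The BUD23 start codon lies 29 bases after the RefSeq start site, in exon 1. The TRMT112 start codon lies 33 bases after the start site at position 64317559 that the RefSeq promoter table uses, which is not the outer end of the gene span.

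The libraries held 107.7 to 121.0 M (mega) expected counts in HEK-293T and 27.3 to 32.7 M in HT-1080. PLAU and FN1, which fibrosarcoma cells express, were at 1720 to 2860 and 845 to 3080 CPM (counts scaled to a library total of 1 M) in HT-1080, and at 0.891 to 1.20 and 25.9 to 73.1 CPM in HEK-293T. The targeted gene HNRNPH1 was at 1111 ± 8.72 CPM in HEK-293T siNegative and 334.9 ± 87.7 CPM in HEK-293T siHNRNPH1 (mean ± SD, n = 3). In HT-1080 it was at 619.2 ± 14.5 and 230.3 ± 1.61 CPM. HNRNPH1 fell by 1.77 on the log2 scale in HEK-293T (SE 0.202, adjusted p = 0.00939) and by 1.49 in HT-1080 (SE 0.042, adjusted p = 6.76e-09; edgeR quasi-likelihood test, two-sided). Replicate 1 of HEK-293T siHNRNPH1 stood apart from replicates 2 and 3. Compared gene by gene with theirs, its counts gave a chi-square divided by degrees of freedom of 811 and 847, against 9.1 between replicates 2 and 3, so the HEK-293T tests of TRMT112 and of the gene lists are also given without it. The HNRNPH1 log2 difference without it was -1.585 (adjusted p = 6.94e-21, edgeR). Without it, 61.8% of all genes tested passed an adjusted p of 0.05 in HEK-293T, against 10.0% with it.

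At the gene level, BUD23 was lower after siHNRNPH1 in both lines. In HEK-293T it was at 99.9, 97.2 and 101.7 CPM in siNegative replicates 1 to 3 and at 94.5, 75.5 and 77.9 CPM in siHNRNPH1 replicates 1 to 3. All 3 siHNRNPH1 libraries were below all 3 siNegative libraries, with replicate 1 nearest to them. In HT-1080 it was at 87.9, 99.5 and 88.4 CPM in siNegative and at 57.1, 57.6 and 60.5 CPM in siHNRNPH1. The HT-1080 groups were further apart than those of HEK-293T and also did not overlap.

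The fitted log2 difference of BUD23 (siHNRNPH1 minus siNegative) was -0.29 in HEK-293T, a level 0.818 times the control, and -0.72 in HT-1080, 0.606 times the control. Without HEK-293T siHNRNPH1 replicate 1 the HEK-293T value was -0.43. Over all genes tested, 4.88% passed the test as lower in HEK-293T and 32.6% in HT-1080. These are the shares against which a decrease of 1 gene would be read, and none is read here because BUD23 was selected on this contrast. In bulk RNA, fewer cells that express a gene and less RNA per cell cannot be told apart.

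**Figure D1:**
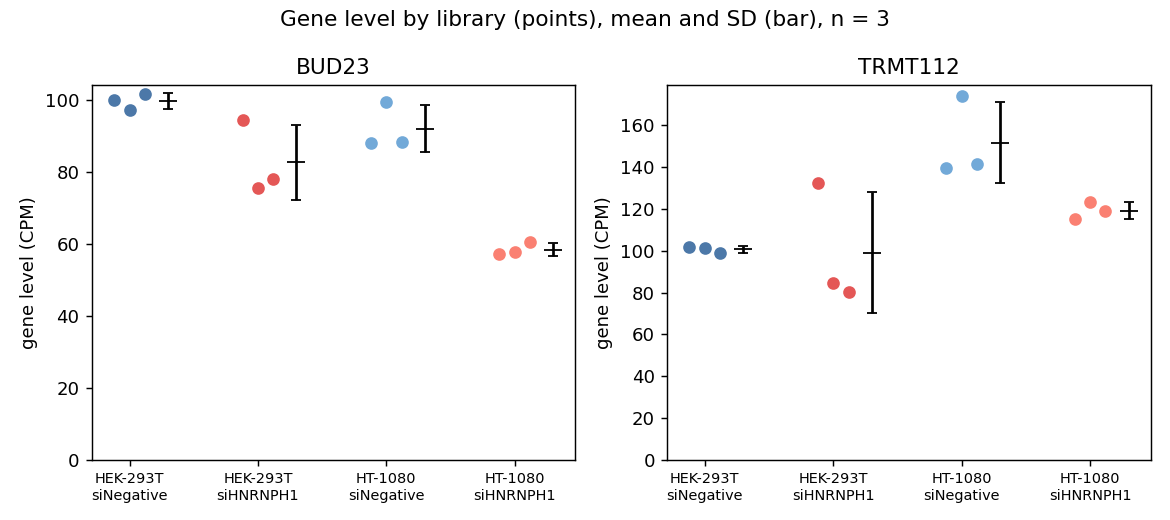
BUD23 (left) and TRMT112 (right) level in CPM on the vertical axis for each of the 12 libraries (points), by group, with the mean and SD of 3 libraries (bars). BUD23 is lower in every siHNRNPH1 library than in the siNegative libraries of its line, and TRMT112 replicate 1 of HEK-293T siHNRNPH1 sits at 132.4 CPM while replicates 2 and 3 are at 84.5 and 80.2 CPM.

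The gene total covers a much larger exchange among BUD23 transcripts. ENST00000265758.7, the main transcript in control cells, held 74.55%, 77.47% and 75.71% of BUD23 expected counts in HEK-293T siNegative and 36.86%, 22.29% and 24.15% in siHNRNPH1. In HT-1080 it held 71.71%, 70.45% and 71.07% in siNegative and 41.54%, 41.25% and 42.66% in siHNRNPH1. In both lines it went from the large majority of BUD23 expected counts to a minority, and the groups were far apart. Expected counts are not corrected for transcript length. The mean share was lower, with a difference of -48.1 percentage points in HEK-293T (-52.7 without siHNRNPH1 replicate 1) and -29.3 in HT-1080. These shares chose the gene and are not tested.

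In absolute level, the main transcript was at 75.6 ± 1.28 CPM in HEK-293T siNegative and 23.5 ± 9.87 CPM in siHNRNPH1, which is 3.22-fold lower. In HT-1080 it was at 65.3 ± 4.13 and 24.4 ± 1.20 CPM, 2.67-fold lower. After siHNRNPH1 the HEK-293T libraries were at 34.8, 16.8 and 18.8 CPM and the HT-1080 libraries at 23.7, 23.8 and 25.8 CPM, within the HEK-293T range.

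The other 17 transcripts together behaved differently in the lines. Their summed level in HEK-293T was 25.4, 21.9 and 24.7 CPM in siNegative and 59.7, 58.6 and 59.1 CPM in siHNRNPH1, a ratio of means of 2.46. Replicate 1 did not stand apart in this sum. In HT-1080 the sum was 24.9, 29.4 and 25.6 CPM in siNegative and 33.4, 33.9 and 34.7 CPM in siHNRNPH1, a ratio of 1.28. In HEK-293T the change in mean level was -52.1 CPM for the main transcript and 35.1 CPM for the rest. In HT-1080 these changes were -40.9 CPM and 7.36 CPM. The interaction estimate for the BUD23 gene level, HT-1080 minus HEK-293T, was -0.51 on the log2 scale. It is a description without a test.

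**Figure D2:**
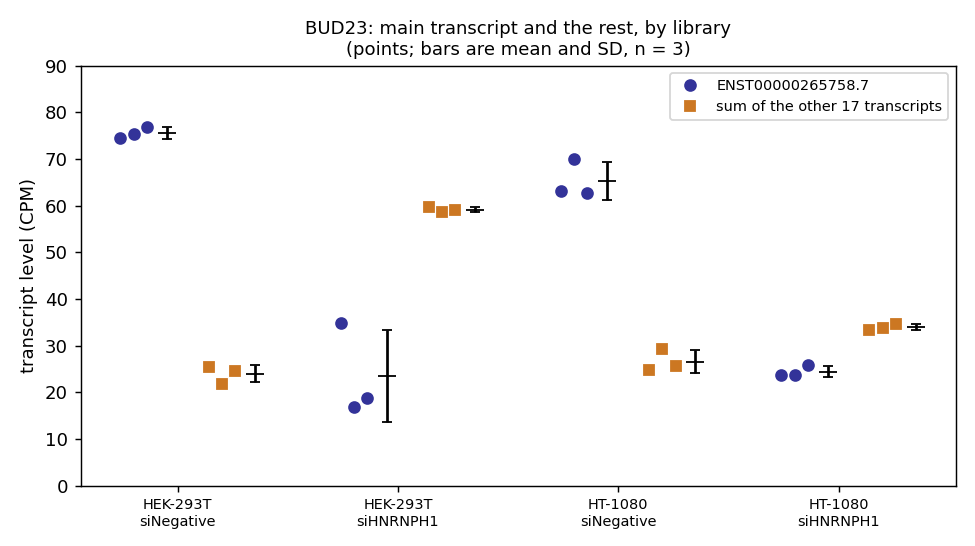
Level in CPM (vertical axis) of ENST00000265758.7 (circles) and of the sum of the other 17 BUD23 transcripts (squares) in each library, by group, with mean and SD (bars, n = 3). After siHNRNPH1 the squares lie above the circles in all 6 libraries, and in the siNegative libraries they lie below them. The squares reach about 59 CPM in HEK-293T siHNRNPH1 and about 34 CPM in HT-1080 siHNRNPH1.

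Besides the main transcript, 4 BUD23 transcripts reached 5% of the gene in the mean of at least 1 group. ENST00000471215.1, the second most abundant, held 12.89%, 12.03% and 11.87% in HEK-293T siNegative and 28.66%, 40.69% and 39.48% in siHNRNPH1. In HT-1080 it held 13.72%, 11.32% and 10.63% and then 23.95%, 21.15% and 24.49%. In HEK-293T siHNRNPH1 this transcript, at 29.5 ± 2.11 CPM, was above the main transcript in the mean and in replicates 2 and 3. In HT-1080 siHNRNPH1 it was at 13.6 ± 1.32 CPM and stayed below the main transcript in every library.

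ENST00000430270.5 had the largest ratio among the named transcripts. It was at 2.23, 1.47 and 1.81 CPM in HEK-293T siNegative and at 14.0, 7.80 and 8.77 CPM in siHNRNPH1, a ratio of means of 5.57. Replicate 1 was the highest of the 3. In HT-1080 it was at 2.32, 1.67 and 1.96 CPM and then at 5.20, 6.13 and 6.53 CPM, a ratio of 3.00. Its share of the gene was near 2% in both control lines and 12.2% and 10.2% after siHNRNPH1.

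ENST00000421304.5 held 0.976%, 1.11% and 1.08% in HEK-293T siNegative and 4.78%, 5.35% and 4.65% in siHNRNPH1. In HT-1080 it held 2.20%, 2.63% and 1.60% and then 6.38%, 5.85% and 5.62%. The groups did not overlap in either line. ENST00000463307.5 held 3.04%, 3.08% and 3.42% in HEK-293T siNegative and 3.07%, 8.97% and 8.82% in siHNRNPH1. Here replicate 1 of siHNRNPH1 lay within the control range and the others well above it. In HT-1080 its share was 1.73% to 2.67% in siNegative and 2.99% to 4.92% in siHNRNPH1, while its CPM overlapped between the groups.

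**Figure D3:**
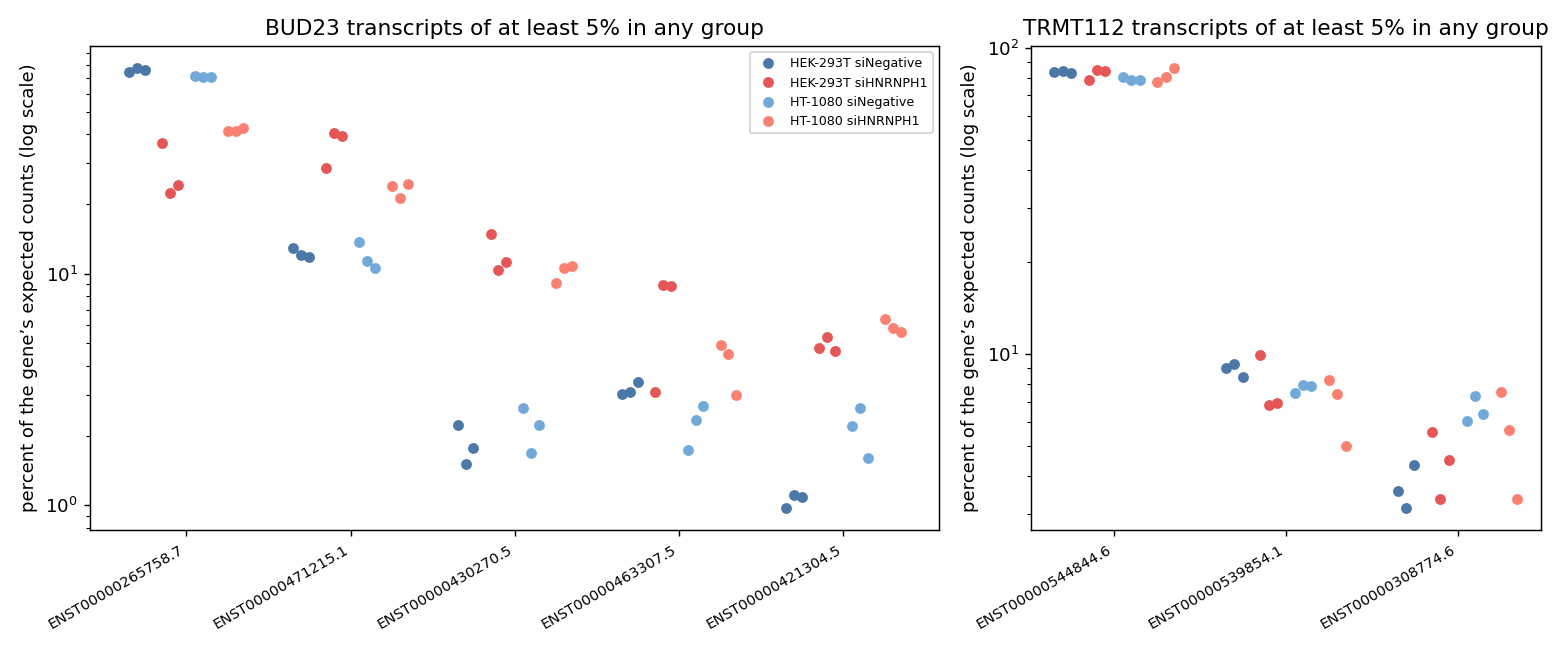
Percent of the gene's expected counts (vertical axis, log scale) held by each transcript that reached 5% in any group, for BUD23 (left) and TRMT112 (right), with 1 point per library and colours for the 4 groups. ENST00000265758.7 is lower and ENST00000471215.1, ENST00000430270.5 and ENST00000421304.5 are higher in every siHNRNPH1 library of both lines, and the points of the 3 TRMT112 transcripts overlap between siRNAs in both lines. For ENST00000539854.1 in HEK-293T the overlap rests on siHNRNPH1 replicate 1.

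Over all 18 BUD23 transcripts, the share did not overlap between siRNAs for 11 in HEK-293T (9 higher, 2 lower after siHNRNPH1) and for 10 in HT-1080 (8 higher, 2 lower). In both lines, 6 were higher, the main transcript was lower and none went in opposite directions. A mean of 10 counts or more was reached by 15 BUD23 transcripts in HEK-293T, 8 higher and 2 lower, and 12 in HT-1080, 6 higher and 2 lower. Among all such transcripts of genes with several transcripts, 27.0% did not overlap in HEK-293T and 25.2% in HT-1080. Shares within 1 gene are tied to each other, because a lower share of the main transcript raises the rest. CPM is not divided by the gene total, though expected counts of transcripts that share sequence are estimated jointly, so some tie remains. By CPM, 8 of the 15 were higher and 2 lower in HEK-293T. In HT-1080, 3 of the 12 were higher and 3 lower. Over all such transcripts, the CPM did not overlap for 29.9% in HEK-293T and 38.8% in HT-1080.

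Among the minor transcripts, ENST00000430446.2 had 4.49, 0 and 2.46 expected counts in HEK-293T siNegative and 112.8, 78.39 and 63.09 in siHNRNPH1. In HT-1080 its groups overlapped. ENST00000423497.5 was at 0.391 ± 0.146 CPM in HEK-293T siNegative and 2.17 ± 0.765 CPM in siHNRNPH1, and at 2.09 ± 0.739 and 2.60 ± 0.570 CPM in HT-1080. ENST00000428163.5 was at 0.919 ± 0.505 and 2.36 ± 0.663 CPM in HEK-293T and its groups overlapped in HT-1080. Other minor transcripts fell without overlap in CPM. In HT-1080, ENST00000432522.5 went from 2.82 to 1.29 CPM and ENST00000442099.1 from 1.17 to 0.366 CPM, and both overlapped in HEK-293T. In HEK-293T, ENST00000496153.5 went from 0.122 to 0.0646 CPM and overlapped in HT-1080. These minor transcripts were picked after their values were seen. The exons of the listed transcripts are not used here, so no BUD23 transcript identifier is assigned to a splice form.

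The IsoSeq pools show which BUD23 splice forms were present as full-length models. These files list each model once with its exon positions and hold no read counts, and they contain 64705, 94847, 72186 and 68078 models for HEK-293T siNegative, HEK-293T siHNRNPH1, HT-1080 siNegative and HT-1080 siHNRNPH1. BUD23 had 2, 1, 5 and 9 models in these pools. Of the 17, 15 spanned the junction between exon 2 and the next exon, and all 15 covered the start codon. The other 2 held only the last exons.

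The 15 spanning models differed mainly at the end of exon 2, a feature picked after the models were seen. Exon 1 lies at chr7:73683597-73683673, of which 48 bases run from the start codon onwards. Exon 2 starts at position 73683767 in all 15 models and is joined to position 73686636. It ended at 5 different places, at positions 73683804, 73683901, 73683923, 73683946 and 73684000, which give exon lengths of 38, 135, 157, 180 and 234 bases. Relative to the shortest form, the longer forms add 97, 119, 142 and 196 bases, and none of these is a multiple of 3. The added bases lie after the start codon shown above, so all 5 forms share the same first coding bases. The build of the IsoSeq files is not stated in them, and their exon 1 starts within 29 bases of the RefSeq start site.

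The 38-base exon 2 was in 1 of 2 models of HEK-293T siNegative and in 0 of 1 of HEK-293T siHNRNPH1. In HT-1080 it was in 2 of 4 models of siNegative and in 3 of 8 of siHNRNPH1. A share of models is not a share of RNA, since each model counts once, and 1 pool per group allows no test. The models show which forms were found and not how often.

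Longer forms were already present in control cells. The 135-base exon was in 1 model of each siNegative pool and in 1 model of HT-1080 siHNRNPH1. The 180-base exon was in 1 HT-1080 siNegative model, in 1 HT-1080 siHNRNPH1 model and in the single HEK-293T siHNRNPH1 model. The 234-base exon was seen in 2 of 8 HT-1080 siHNRNPH1 models and the 157-base exon in 1 of 8. Neither was among the 4 models of HT-1080 siNegative, a pool with fewer BUD23 models.

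**Figure D4:**
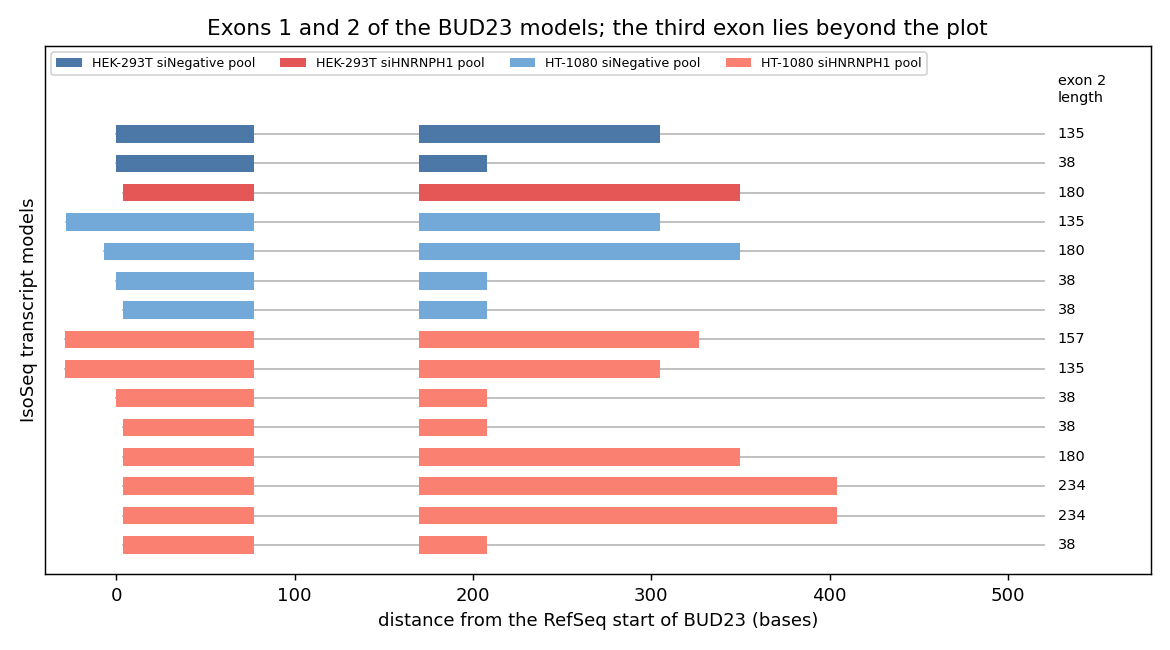
Exons 1 and 2 (boxes) of the 15 BUD23 IsoSeq models that span exon 2, by pool, against the distance in bases from the RefSeq start site (horizontal axis), with the length of exon 2 at the right. Exon 1 and the start of exon 2 are the same apart from the first bases, and exon 2 ends 207, 304, 326, 349 or 403 bases from the start site.

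Downstream of exon 2 the BUD23 models were more uniform, and 11 of the 15 had 12 exons. A 51-base exon at chr7:73697466-73697516 was present in 2 of the 9 HT-1080 siHNRNPH1 models and in none of the 8 models of the other pools. A retained intron was present in 1 HT-1080 siNegative model. Internal exons common to most models were absent from 2 HT-1080 siHNRNPH1 models, which had 11 and 9 exons. An earlier 3′ end was present in 1 HEK-293T siNegative and 1 HT-1080 siHNRNPH1 model.

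TRMT112 fell in HT-1080 and did not pass the test in HEK-293T with all libraries. In HT-1080 it was at 139.6, 174.1 and 141.4 CPM in siNegative and at 115.0, 123.1 and 119.0 CPM in siHNRNPH1. All siHNRNPH1 libraries were below all siNegative libraries, of which replicate 2 was the highest. TRMT112 fell by 0.42 on the log2 scale, 0.748 times the control (SE 0.084, adjusted p = 0.00157, edgeR quasi-likelihood test with Benjamini-Hochberg adjustment). In this fit 65.3% of all genes passed, 32.6% as lower, so a call in HT-1080 is common. Replicate 2 of HT-1080 siNegative differed from replicates 1 and 3 with a chi-square over degrees of freedom of 17.8 and 17.4. Between replicates 1 and 3 it was 1.78. Leaving out 1 library gave TRMT112 values of -0.485 to -0.307, all of which passed. The value of -0.307 was without siNegative replicate 2.

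In HEK-293T, TRMT112 was at 101.8, 101.3 and 98.8 CPM in siNegative and at 132.4, 84.5 and 80.2 CPM in siHNRNPH1. Replicate 1 was above every control library and replicates 2 and 3 below every one. The fitted log2 difference was -0.038 (SE 0.241, adjusted p = 0.939), with 10.0% of all genes passing. Without siHNRNPH1 replicate 1 TRMT112 fell by 0.35 (SE 0.033, adjusted p = 5.34e-09), where 31.3% of all genes passed as lower and 30.5% as higher. The interaction, HT-1080 minus HEK-293T, was -0.46 (SE 0.287, adjusted p = 0.306), so no difference in response between the lines was shown. Its size depended on the HEK-293T siHNRNPH1 libraries. It was -0.123 without replicate 1 (adjusted p = 0.362, edgeR) and -0.598 and -0.625 without replicate 2 or 3 (adjusted p = 0.168 and 0.118, edgeR). The HEK-293T call thus turned on siHNRNPH1 replicate 1, which also had the lowest HNRNPH1 level of its group, 234.1 CPM against 376.2 and 394.3 CPM. The part of that level in the TRMT112 value was not tested. Left out instead, siHNRNPH1 replicate 2 or 3 gave TRMT112 values of 0.079 and 0.10, which did not pass.

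Among the TRMT112 transcripts, ENST00000544844.6, the main one, held 83.2% to 84.1% in HEK-293T siNegative and 78.75%, 84.6% and 83.9% in siHNRNPH1, and 78.4% to 80.2% and 77.65% to 86.1% in HT-1080. ENST00000539854.1 held 8.43% to 9.29% in HEK-293T siNegative and 9.91%, 6.81% and 6.95% in siHNRNPH1, and 7.48% to 7.92% and 5.00% to 8.27% in HT-1080. In HEK-293T its siHNRNPH1 replicate 1 was above every siNegative library, and replicates 2 and 3 were below every one. ENST00000308774.6 held 3.15% to 4.36% and 3.36% to 5.57% in HEK-293T, and 6.07% to 7.33% and 3.36% to 7.52% in HT-1080. All 3 overlapped between the siRNAs in both lines, ENST00000539854.1 in HEK-293T only through siHNRNPH1 replicate 1.

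TRMT112 transcript usage did not pass the test in HEK-293T (adjusted p = 0.749, limma diffSplice) or in HT-1080 (adjusted p = 0.775), where 9.59% and 21.2% of all genes passed. Without siHNRNPH1 replicate 1 the HEK-293T value was nearer to the threshold and still did not pass (unadjusted p = 0.0373, adjusted p = 0.0797, limma diffSplice). A p above the threshold does not show that the proportions were equal. Of the 6 TRMT112 transcripts, the share of 1, ENST00000537918.1 in HEK-293T, did not overlap between the siRNAs, fewer than the 27.0% of all transcripts. It was at 0.357 CPM in siNegative and 0.757 CPM in siHNRNPH1 in the mean, and it is named here for that reason. TRMT112 overlaps PRDX5 (chr11:64318121-64321811) and ESRRA (chr11:64305524-64316743), and whether counting used the strand is not given in the sources used here, so reads of these genes may be mixed. PRDX5 was at 89.1 and 140.0 CPM in HEK-293T siNegative and siHNRNPH1 and at 162.0 and 176.0 CPM in HT-1080, and ESRRA at 21.9 and 28.0 CPM and at 63.6 and 61.0 CPM. The HEK-293T log2 differences, 0.65 for PRDX5 and 0.34 for ESRRA, were 0.015 and -0.035 without siHNRNPH1 replicate 1, and none of these 4 passed. Their part in the TRMT112 values was not tested. The 7 listed TRMT112 pseudogenes had at most 8.09 expected counts in any library.

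In the IsoSeq pools TRMT112 had 7 models in HT-1080 siNegative, 6 in HT-1080 siHNRNPH1 and 0 in both HEK-293T pools. The last intron was removed in 5 models of each HT-1080 pool. An exon shorter by 15 bases was present in 1 model of each. The start codon was covered by 2 of 7 models in siNegative and by 4 of 6 in siHNRNPH1, and in each pool 1 model started over 500 bases upstream of it, by 554 and 570 bases.

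The other methyltransferases that depend on TRMT112 did not move together. TRMT11, which methylates a guanosine of tRNA, fell in both lines, by 0.84 in HEK-293T on the log2 scale (SE 0.15, adjusted p = 0.0251) and by 0.69 in HT-1080 (SE 0.077, adjusted p = 3.4e-05). Without siHNRNPH1 replicate 1 the HEK-293T value was -0.72 (adjusted p = 6.07e-12, edgeR). It went from 32.6 to 18.6 CPM in HEK-293T and from 14.9 to 9.66 CPM in HT-1080. METTL5, which methylates an adenosine of 18S rRNA, fell in HT-1080 by 0.36 (adjusted p = 0.00241, edgeR) and had a difference of -0.13 in HEK-293T (adjusted p = 0.804), which was -0.495 without siHNRNPH1 replicate 1 (adjusted p = 1.35e-09). THUMPD2, which acts on U6 small nuclear RNA, fell in HT-1080 by 0.58 (adjusted p = 0.000102, edgeR) with -0.085 in HEK-293T (adjusted p = 0.662), or -0.12 without that replicate (adjusted p = 0.0195).

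THUMPD3, a tRNA enzyme, rose in HT-1080 by 0.16 on the log2 scale (adjusted p = 0.00972, edgeR) and had -0.019 in HEK-293T (adjusted p = 0.941), or 0.053 without siHNRNPH1 replicate 1 (adjusted p = 0.176). ALKBH8, a wobble-uridine tRNA enzyme, and N6AMT1, which methylates a translation release factor, did not pass in either line with all libraries, with 0.034 and 0.17 in HT-1080 and -0.059 and 0.14 in HEK-293T. Without siHNRNPH1 replicate 1 both passed in HEK-293T, ALKBH8 with the opposite sign at 0.20 (adjusted p = 0.000137, edgeR) and N6AMT1 at 0.25 (adjusted p = 0.000177). Of these 6 genes without BUD23, 1 passed in HEK-293T (lower), 5 without siHNRNPH1 replicate 1 (2 higher, 3 lower) and 4 in HT-1080 (1 higher, 3 lower). The shares over all genes were 10.0%, 61.8% and 65.3%, and 4 of 6 is 66.7%, so the HT-1080 count is near that of any genes.

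Genes of small-subunit rRNA modification, which work on the same rRNA as BUD23, were lower more often than higher in HT-1080. Of 9, 7 fell in HT-1080 and none rose, which is 77.8% called beside 65.3% of all genes. By direction, 32.6% of all genes passed as lower and 32.7% as higher. In HEK-293T 1 of 9 passed (lower), beside 10.0% of all genes, and 8 passed without siHNRNPH1 replicate 1 (3 higher, 5 lower), beside 61.8%. NAT10, which acetylates cytidines of 18S rRNA, fell by 0.67 in HEK-293T (SE 0.113, adjusted p = 0.0219) and by 0.21 in HT-1080 (SE 0.042, adjusted p = 0.00176). The HEK-293T value was -0.62 without siHNRNPH1 replicate 1. Its level went from 187.0 to 120.0 CPM in HEK-293T and from 85.3 to 77.5 CPM in HT-1080.

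Among 14 genes of small-subunit processing and export, 2 passed in HEK-293T (1 higher, 1 lower), 12 without siHNRNPH1 replicate 1 (7 higher, 5 lower) and 11 in HT-1080 (3 higher, 8 lower), which is 14.3%, 85.7% and 78.6% beside 10.0%, 61.8% and 65.3% of all genes. TSR1, a factor of late small-subunit maturation, fell by 1.22 in HEK-293T (SE 0.116, adjusted p = 0.00628) and by 0.72 in HT-1080 (SE 0.048, adjusted p = 8.71e-07). It went from 227.0 to 99.0 CPM and from 267.0 to 170.0 CPM, and the HEK-293T value was -1.17 without siHNRNPH1 replicate 1. DHX37, a helicase that removes U3 from the pre-ribosome, rose by 0.53 on the log2 scale in HEK-293T (SE 0.122, adjusted p = 0.0486) and by 0.98 in HT-1080 (SE 0.048, adjusted p = 1.32e-07), with 0.46 in HEK-293T without that replicate. Among 4 methyltransferases of the large subunit, 3 fell in HT-1080 and 3 passed in HEK-293T without replicate 1 (1 higher, 2 lower). With all HEK-293T libraries 0 of 4 passed in edgeR, 0 had an unadjusted p under 0.05 and 0 passed in DESeq2.

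Over the 32 genes of these lists, 4 passed in HEK-293T (1 higher, 3 lower, 12.5%), beside 5.12% of all genes passing as higher and 4.88% as lower. These 4 calls, TRMT11, NAT10, TSR1 and DHX37, needed all 3 siNegative libraries: without any 1 of them 0 of 32 passed in edgeR, with 4 at an unadjusted p under 0.05, and DESeq2 on all libraries called 4. Without siHNRNPH1 replicate 2 or 3, 1 passed. With no expression filter 2 passed, and with the replicate number as a block 0 passed, with 4 at an unadjusted p under 0.05. Without siHNRNPH1 replicate 1, 27 passed (13 higher, 14 lower, 84.4%), beside 61.8% of all genes. In HT-1080 24 passed (4 higher, 20 lower, 75%), beside 32.7% of all genes as higher and 32.6% as lower. The median log2 difference was 0.11 in HEK-293T and -0.22 in HT-1080, against medians over all genes of 0.024 and 0.0060. The HEK-293T median was -0.015 without siHNRNPH1 replicate 1. By the interaction test 11 of the 32 responded differently in the lines, 9 of them lower in HT-1080 relative to HEK-293T, beside 19.0% of all genes.

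**Figure D5:**
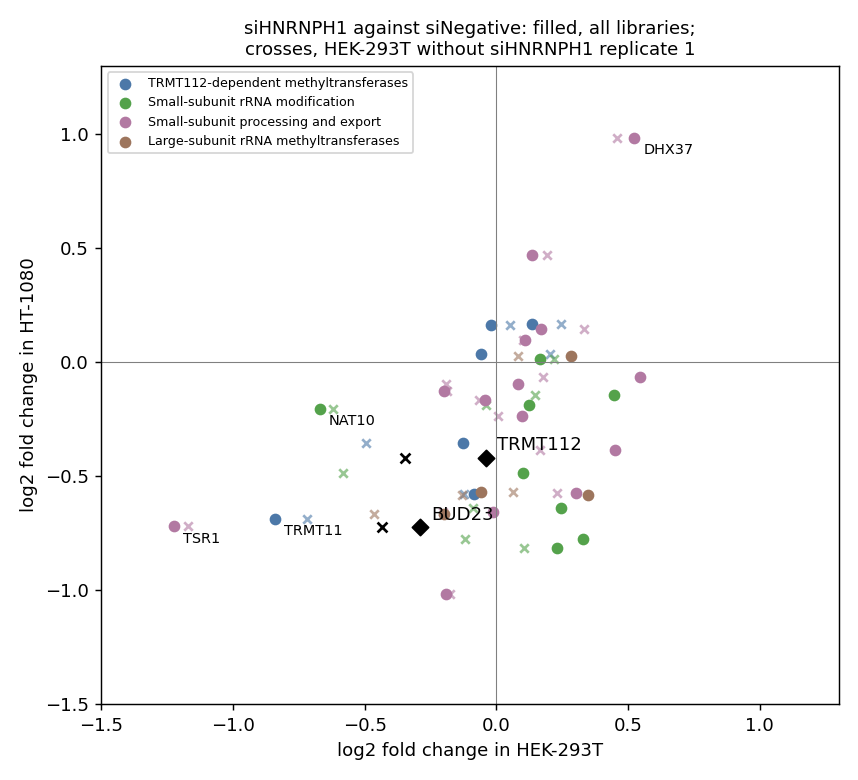
Log2 fold change (siHNRNPH1 against siNegative) in HEK-293T (horizontal axis) and HT-1080 (vertical axis) for BUD23 and TRMT112 (diamonds) and the 32 listed pathway genes (dots, coloured by list), with crosses for HEK-293T without siHNRNPH1 replicate 1. TSR1, TRMT11 and NAT10 lie in the lower left and DHX37 in the upper right, and TRMT112 moves from -0.038 to -0.35 on the horizontal axis without that replicate.

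The control cells give a comparison that played no part in choosing BUD23, though cell line and depth cannot be told apart in it. BUD23 was at 99.6 ± 2.26 CPM in HEK-293T siNegative and 91.9 ± 6.55 CPM in HT-1080 siNegative. Its fitted log2 difference, HT-1080 minus HEK-293T, was 0.14 (SE 0.057, adjusted p = 0.0416) after scaling by the trimmed mean of M-values and -0.12 (adjusted p = 0.073, edgeR) with library size alone, so the direction depended on the scaling. Leaving out 1 library gave 0.058 to 0.16 under the first scaling, the lowest without HT-1080 siNegative replicate 2, and BUD23 then passed only without HT-1080 siNegative replicate 1. That change of scaling shifted the median of all genes by -0.25, from -0.10. Of all genes tested, 86.6% passed in this contrast. TRMT112 was higher in HT-1080, at 151.7 ± 19.4 CPM against 100.6 ± 1.63 CPM, a log2 difference of 0.85 (SE 0.081, adjusted p = 4.23e-06).

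BUD23 usage also differed between the control lines over 13 transcripts tested (adjusted p = 3.41e-09, limma diffSplice), where 73.4% of all genes passed. The transcripts with the smallest adjusted p were minor ones. ENST00000442099.1 held 0%, 0.0334% and 0.043% of BUD23 in the HEK-293T libraries and 0.759%, 1.48% and 1.54% in HT-1080 (adjusted p = 1.11e-09). ENST00000453316.1 held 0.0334%, 0% and 0.0161% and then 0.333%, 0.299% and 0.860% (adjusted p = 4.94e-06). ENST00000423497.5 held 0.560%, 0.302% and 0.316% and then 1.43%, 2.35% and 3.02% (adjusted p = 0.000188). The first 2 rest on fewer than 6 expected counts in each HEK-293T library, and on simulated data for this contrast most calls of the usage test fell on genes that had not been changed. The main transcript held 75.9% and 71.1% (adjusted p = 0.00204). Over all genes, 36.9% of transcripts passed. With transcripts of at least 5% of the gene only, BUD23 no longer passed (adjusted p = 0.777). TRMT112 usage differed as well (adjusted p = 0.00115, limma diffSplice, 6 transcripts), with 83.6% and 79.1% of the gene in ENST00000544844.6 and 3.69% and 6.59% in ENST00000308774.6, and it did not pass with edgeR's diffSpliceDGE (adjusted p = 0.163).

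The genes whose level followed BUD23 most closely over the 12 libraries, after centring each line, were LSM5 (Pearson r 0.994), PPIH (0.992), CKLF (0.99), ISCU (0.989) and FDFT1 (0.988), among 12173 genes. For TRMT112 they were GEMIN7 (0.994), TUBA1C (0.986), PCBD1 (0.986), NDUFAF8 (0.985) and PRELID1 (0.984). BUD23 and TRMT112 correlated with each other with an r of 0.771. These are descriptions, since the libraries share the siRNA contrast and replicate 1 of HEK-293T siHNRNPH1.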

How the data were processed

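The authors deposited expected counts per transcript, 1 table per cell line, estimated with RSEM on GRCh38.p13 per the submitters' processing notes, and IsoSeq transcript models as exon coordinates, in files that name no build. Versions, annotation release and strandedness are not given in the sources used here. All columns matched a sample (0 unmatched), and 61803 of 61906 gene identifiers were in the reference name table. Expected counts were summed per gene, rounded, filtered (filterByExpr), scaled by TMM and tested in each line with edgeR 4.0.16 (quasi-likelihood, robust, two-sided) in R 4.3.3. Transcript usage was tested with limma 3.58.1 diffSplice on voom weights. DESeq2 1.42.0 was an alternative. P-values were Benjamini-Hochberg adjusted over all genes or transcripts, with a threshold of 0.05. CPM divides by the library total. On simulated data most diffSplice calls fell on unchanged genes, so usage is read from the percents in the libraries.

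Members and lists were chosen with earlier results of these data known. Named were transcripts of at least 5% of their gene in any group, up to 4 genes per list that passed in both lines in the same direction (by the smaller change), and the 5 genes most correlated with each member in log2(CPM + 1), among genes with means of 50 counts or more in both lines. The other genes that depend on TRMT112 were named in full. Transcripts under 5% were named after their values were seen. Alternatives were other scaling, no filter, DESeq2, a replicate block, other usage tests and leaving out each replicate. No replicate pair was within sampling noise (chi-square over degrees of freedom 1.78 to 847).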

Additional observations from a re-analysis of the deposited data

Results flagged for a closer look

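By an edgeR test of the cell line by siRNA interaction over 12 libraries, 3 of the genes described above responded differently in the lines. Over all genes tested, 19.0% passed this test. Only the genes named from the lists and the methyltransferases that depend on TRMT112 were searched. The differences are HT-1080 minus HEK-293T on the log2 scale. NAT10 differed by 0.394 (SE 0.104, adjusted p = 0.0224), since it fell more in HEK-293T. TSR1 differed by 0.433 (SE 0.11, adjusted p = 0.0191), in the same sense. THUMPD2 differed by -0.565 (SE 0.127, adjusted p = 0.00992), with a fall in HT-1080 and -0.085 in HEK-293T. Without HEK-293T siHNRNPH1 replicate 1 the HEK-293T differences of these genes were -0.62, -1.17 and -0.12. Their interaction values without that library are not given here. Cell line and depth cannot be told apart in these differences.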

How the results depend on the processing

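Of 159 alternative values for 19 results, 138 kept the direction and the side of the threshold, or stayed within a set range. That range was the replicate spread, 1.5 times the count or, for IsoSeq shares, the exact confidence interval. The IsoSeq alternatives are among the 138 and could not change a share, since every spanning model met them. Without 1 library, TRMT112 in HEK-293T ranged from -0.346 to 0.1 on the log2 scale (adjusted p 5.34e-09 to 0.972, edgeR). It fell without siHNRNPH1 replicate 1 and turned positive without replicate 2 (0.079) or 3 (0.1). BUD23 in HEK-293T ranged from -0.434, without siHNRNPH1 replicate 1, to -0.215. The listed pathway genes called in HEK-293T, 4 of 32, became 2 with no expression filter and ranged from 0 (without any 1 siNegative library) to 27 (without siHNRNPH1 replicate 1). They were 1 without siHNRNPH1 replicate 2 or 3, and at each count of 0 edgeR gave 4 at an unadjusted p under 0.05. In HT-1080 the count ranged from 21 to 27. The difference of BUD23 between control lines was -0.115 with library size only and 0.004 with no filter (adjusted p = 0.955), and it ranged from 0.058 to 0.161 without 1 library (adjusted p 0.0466 to 0.123). It passed only without HT-1080 siNegative replicate 1. The usage of BUD23 between control lines had an adjusted p of 0.777 with transcripts of at least 5 percent only, and TRMT112 0.163 with diffSpliceDGE. The causes were not tested. Without 1 library these ranged from 7.34e-07 to 0.00103 and from 0.000396 to 0.018.

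Whether replicate numbers pair the samples could not be settled with 3 replicates per group. Deviations of same-numbered HEK-293T libraries had small positive correlations (r = 0.087, 0.098, 0.023). There the same number was the best match in 3 of 3 cases, so pairing in this line was neither shown nor excluded. For HT-1080 the r values were -0.003, 0.085 and 0.035, and the same number matched best in 1 of 3 cases. With a replicate block, the pathway count in HEK-293T was 0 (4 at an unadjusted p under 0.05), and no call changed among the other results fitted with it (TRMT112 level, usage and interaction, and the HT-1080 pathway count). In the IsoSeq pools the number of models limits every share.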

Other observations

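Of the chromosomal neighbours of BUD23 on chromosome 7, some moved in its direction and some against it. In HT-1080, 5 of the 7 tested passed (edgeR adjusted p, 3 higher and 2 lower), beside 65.3% of all genes. DNAJC30, whose span lies before the BUD23 start site, rose in HT-1080 by 0.34 on the log2 scale (adjusted p = 0.0112, edgeR). Its HEK-293T difference was -0.46 with all libraries (adjusted p = 0.176, edgeR) and -0.65 without siHNRNPH1 replicate 1 (adjusted p = 3.64e-07, edgeR). STX1A, whose span lies beyond the BUD23 end, fell in HT-1080 by 0.44 (adjusted p = 3.3e-05, edgeR). Its HEK-293T difference had the other sign and did not pass, at 0.437 with all libraries (adjusted p = 0.286, edgeR). It was 0.165 without siHNRNPH1 replicate 1 (adjusted p = 0.0655, edgeR). In HEK-293T, 0 of 8 passed in edgeR with 2 at an unadjusted p under 0.05, and 0 passed in DESeq2; without siHNRNPH1 replicate 1, 5 passed (1 higher, 4 lower), beside 61.8% of all genes. Among the neighbours of TRMT112 on chromosome 11, 7 of 10 passed in HT-1080 (3 higher, 4 lower) and 1 of 11 in HEK-293T (2 in DESeq2, 1 higher and 1 lower), beside 65.3% and 10.0% of all genes. Without siHNRNPH1 replicate 1, 6 of 12 passed in HEK-293T (2 higher, 4 lower). The gene that passed in edgeR with all libraries, PLCB3, a phospholipase, fell by 0.88 in HEK-293T (adjusted p = 0.0456) and by 1.10 in HT-1080 (adjusted p = 7.12e-08, edgeR). DNAJC30 and STX1A were named after their values were seen, as the nearest neighbours of BUD23.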
